A study of Mus musculus with 6 samples.

Results

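The colony-stimulating factors and the interleukin 6 (IL-6) family are followed here through 6 genes, Csf1, Csf2, Csf3, Il6, Lif and Osm. They were found by symbol: every probe of the deposited table whose platform annotation names 1 of them alone was taken. That gave 7 probes for 5 of the 6 genes, out of 13738 probes for 10698 gene symbols. Osm, which encodes oncostatin M, was not analysed here. Csf3 and Lif had 2 probes each, called A and B below, and the others had 1. Of the 7 probes, 6 had a value on every array, with at least 1 for each of the 5 genes.

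The cells were RAW 264.7, a mouse macrophage line, which some labels write as RAW 264.4. One RNA of each array came from cells given 100 ng/ml lipopolysaccharide (LPS) and 100 pM LPS-binding protein (LBP) for 2 h, and the other from untreated cells cultured for 2 h. Both agents were always given together, and all cells were of this 1 line. The 6 arrays formed 3 numbered sets, each with 1 array that held the treated RNA in Cy5 and 1 that held it in Cy3. Nothing states that the sets were separate cultures, so p-values measure the spread between these sets, which may be technical. Values are log2 ratios of treated over untreated, with the sign of the arrays with treated RNA in Cy3 turned, and a set is the mean of its 2 arrays. A ratio shows no level, so the macrophage identity of the cells could not be checked from marker levels. Fewer expressing cells and less RNA per cell cannot be told apart.

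Colony-stimulating factors are secreted proteins that keep myeloid cells alive and drive their growth and maturation. Csf1 (M-CSF) serves macrophages, Csf2 (GM-CSF) serves macrophages, granulocytes and dendritic cells, and Csf3 (G-CSF) serves neutrophils. IL-6, leukaemia inhibitory factor (Lif) and oncostatin M signal through receptors that contain gp130, the product of Il6st, and through JAK kinases and STAT3. Macrophages are known to release several of these factors when LPS engages Toll-like receptor 4, through NF-κB, C/EBP and AP-1 transcription factors.

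After 2 h with LPS and LBP, 4 of the 5 measured genes rose and 0 fell: Csf3, Il6, Lif and Csf2. Csf3 rose the most, 7.52-fold, followed by Il6 at 2.21-fold, Lif at 1.65-fold as the mean of its probes and Csf2 at 1.53-fold. Csf1 stood at 1.11-fold and did not pass. A feature passed where the limma test of the 3 set means against 0 had a Benjamini-Hochberg adjusted p under 0.05 over all 11231 features. Of these features, 14.8% passed, 7.35% higher and 7.45% lower. Taken probe by probe, 4 of the 6 probes with a value on every array were higher and 0 lower, against 7.5% of 13224 probes that were higher. The median of the 5 genes was 0.72 on the log2 scale, and that of all features was -0.00. Without set 3 the number that rose was 2, Csf3 and Lif.

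**Figure D1:**
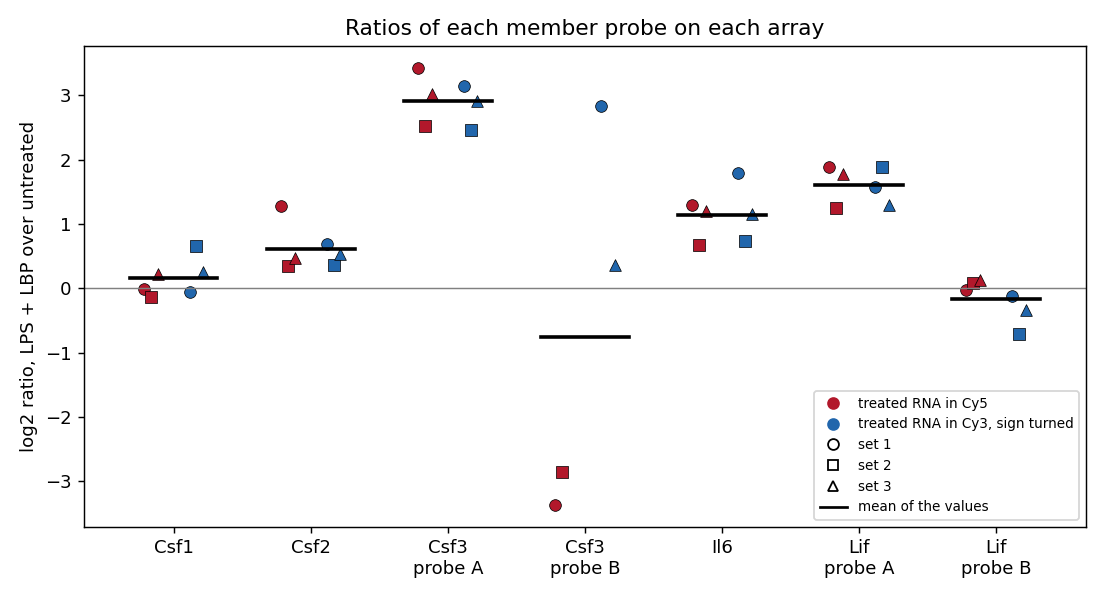
Log2 ratio of LPS + LBP over untreated (vertical axis) on each array for the 7 member probes. Red points are arrays with treated RNA in Cy5, blue points those with treated RNA in Cy3 after the sign was turned, the shape gives the set and the black line is the mean of the values. Csf3 probe A lies between 2.45 and 3.43, while Csf3 probe B has 4 values from -3.36 to 2.84 and Lif probe B scatters around 0.

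The stretches before the transcription starts of the members are shown because most of these genes rose together. RefSeq promoters on GRCm38.p6 were matched by symbol for 4 of the 6 genes, Csf1, Csf2, Il6 and Lif, and not for Csf3 and Osm. Each line gives the 250 bases before the start, 5′ to 3′ on the gene's strand, with the motif matches in capitals. On both strands, 7 motifs were searched: GGGNNTTTC for NF-κB, TTGCNNAA for C/EBP, TGANTCA for AP-1, GAGATTCC for the CK-1 element of colony-stimulating factor promoters, TGACGTCA for CREB and ATF, TTCNNNGAA for STAT and TATAAA.
Il6, chr5:30012864-30013113, plus strand: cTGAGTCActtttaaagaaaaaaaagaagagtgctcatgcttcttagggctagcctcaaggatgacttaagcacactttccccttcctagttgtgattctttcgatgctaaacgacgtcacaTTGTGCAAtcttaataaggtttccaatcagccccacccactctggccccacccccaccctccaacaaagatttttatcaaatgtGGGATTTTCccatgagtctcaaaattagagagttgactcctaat
Lif, chr11:4257318-4257567, plus strand: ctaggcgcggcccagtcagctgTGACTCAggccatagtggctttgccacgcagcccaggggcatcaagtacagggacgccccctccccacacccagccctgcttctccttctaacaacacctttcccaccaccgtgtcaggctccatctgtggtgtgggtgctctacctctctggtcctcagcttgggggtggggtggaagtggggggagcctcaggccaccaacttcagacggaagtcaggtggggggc
Csf2, chr11:54249900-54250149, minus strand: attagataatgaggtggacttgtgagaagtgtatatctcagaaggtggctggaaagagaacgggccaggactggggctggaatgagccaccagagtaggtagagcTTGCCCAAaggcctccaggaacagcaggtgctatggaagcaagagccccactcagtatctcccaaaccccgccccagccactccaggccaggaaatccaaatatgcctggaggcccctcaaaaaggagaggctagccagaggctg
Csf1, chr3:107760470-107760719, minus strand: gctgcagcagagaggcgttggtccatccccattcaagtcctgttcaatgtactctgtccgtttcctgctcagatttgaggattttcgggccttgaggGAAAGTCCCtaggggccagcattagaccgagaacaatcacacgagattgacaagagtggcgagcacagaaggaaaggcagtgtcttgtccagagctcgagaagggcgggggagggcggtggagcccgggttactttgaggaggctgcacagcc

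Il6 held 3 matches that do not overlap. The NF-κB letters GGGATTTTC ended 36 bases before the start, the C/EBP letters TTGTGCAA lay from -128 to -121, and an AP-1 match, TGAGTCA, began at -249. Lif held an AP-1 match, TGACTCA, from -228 to -222. Csf2 held a C/EBP match, TTGCCCAA, from -145 to -138. Csf1 held an NF-κB match on the opposite strand, printed as GAAAGTCCC, from -153 to -145. Of 32851 RefSeq promoter windows of the same length, 3.72% held the NF-κB letters, 9.56% those of C/EBP and 6.75% those of AP-1. The letters for CK-1, CREB and ATF, STAT and TATA were in none of these 4 windows and in 0.755%, 1.55%, 7.02% and 12.4% of all windows. Bases outside these windows, including those after the RefSeq start used, were not searched. A match is a description of the letters and no evidence of binding.

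**Figure D2:**
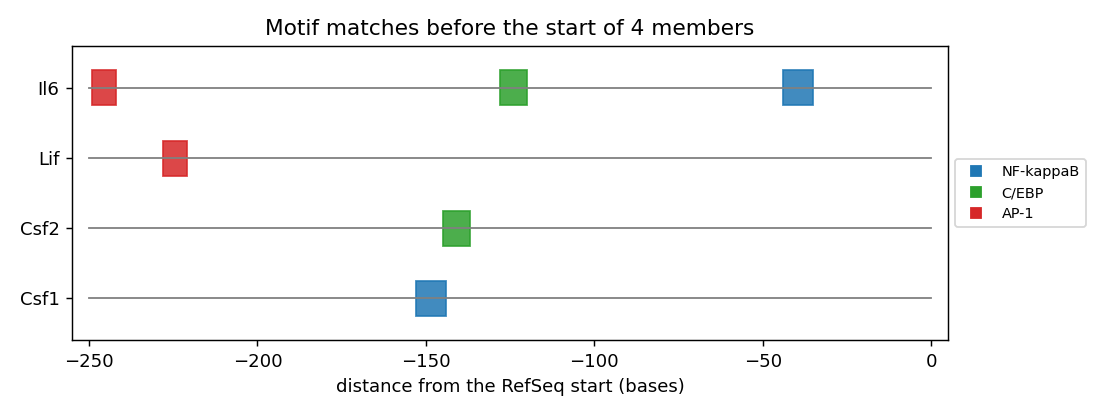
Motif matches (coloured boxes) in the 250 bases before the RefSeq start of 4 members, with distance from the start in bases on the horizontal axis. Il6 has 3 matches and Lif, Csf2 and Csf1 have 1 each.

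Csf3 encodes granulocyte colony-stimulating factor, which sends neutrophils out of the bone marrow. On probe A its log2 ratio was 3.43, 2.52 and 3.02 in sets 1 to 3 with treated RNA in Cy5, and 3.14, 2.45 and 2.90 with treated RNA in Cy3. All 6 values were high, the 2 orientations overlapped, and set 2 was the lowest in both. The mean was 2.91 ± 0.40 (SD, n = 3 sets; adjusted p = 7.71e-05, higher on 6 of 6 arrays), the rank 12 of 11231 features from the largest rise.

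Probe B of Csf3 had values on 4 arrays, -3.36 and -2.85 in sets 1 and 2 with treated RNA in Cy5, and 2.84 and 0.36 in sets 1 and 3 with treated RNA in Cy3. Both Cy5 values were far below 0 and both Cy3 values above it. As deposited, before any sign was turned, 0 of the 4 ratios were positive, so the probe leaned to Cy3 whichever RNA that dye labelled. In set 1, the part that followed the channel was -3.10 and the part that followed the treatment was -0.26. Both probes are annotated to the same transcript. With missing values allowed and both probes averaged, Csf3 stood at 1.66 (adjusted p = 0.0113), so the size given for it rests on probe A.

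Il6 encodes interleukin 6, which drives the acute phase response and acts on B and T cells. Its probe gave 1.30, 0.67 and 1.20 in sets 1 to 3 with treated RNA in Cy5 and 1.79, 0.73 and 1.16 with treated RNA in Cy3. All values were above 0, and set 2 was the lowest in both orientations. The mean was 1.14 ± 0.42 (SD, n = 3 sets; adjusted p = 0.00399, rank 100). The adjusted p was 0.0538 without set 3 and 0.0557 on the arrays with treated RNA in Cy3 alone.

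Lif encodes leukaemia inhibitory factor, best known for keeping mouse embryonic stem cells undifferentiated. Probe A gave 1.88, 1.25 and 1.78 in sets 1 to 3 with treated RNA in Cy5, and 1.57, 1.88 and 1.29 with treated RNA in Cy3. All 6 values were high and the orientations overlapped. Their mean was 1.61 ± 0.10 (SD, n = 3 sets), or 3.05-fold, with adjusted p = 9.94e-06 in the probe fit.

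Probe B of Lif gave -0.02, 0.08 and 0.13 with treated RNA in Cy5 and -0.12, -0.71 and -0.34 with treated RNA in Cy3. The first 3 values were near 0 and the others below it, so the orientations did not overlap. Its mean was -0.16 ± 0.13 (SD, n = 3 sets), with adjusted p = 0.150 in the probe fit, and its part that followed the channel, 0.23, was larger than the part that followed the treatment. That channel part was larger than the parts of 88.7% of the 13224 probes, whose median size was 0.09. A channel part larger than the treatment part was common, found for 52.8% of these probes. The part that followed the channel was 0.03 for Lif probe A, 0.08 for Csf3 probe A, -0.08 for Il6, 0.08 for Csf2 and -0.13 for Csf1.

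Both Lif probes are annotated to the same transcript, and their means lay 1.77 apart. Among 1808 genes with several probes measured on all arrays, the median range between probes was 0.08, and 9 genes (0.498%), Lif included, had a range of at least that of Lif. The gene value of 0.72 ± 0.10 (SD, n = 3 sets; adjusted p = 0.000514, rank 188) is the average of these probes and lies near neither. With the probe of the smaller spread between sets, Lif stood at 1.61. Which probe reports the Lif transcript was not tested.

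**Figure D3:**
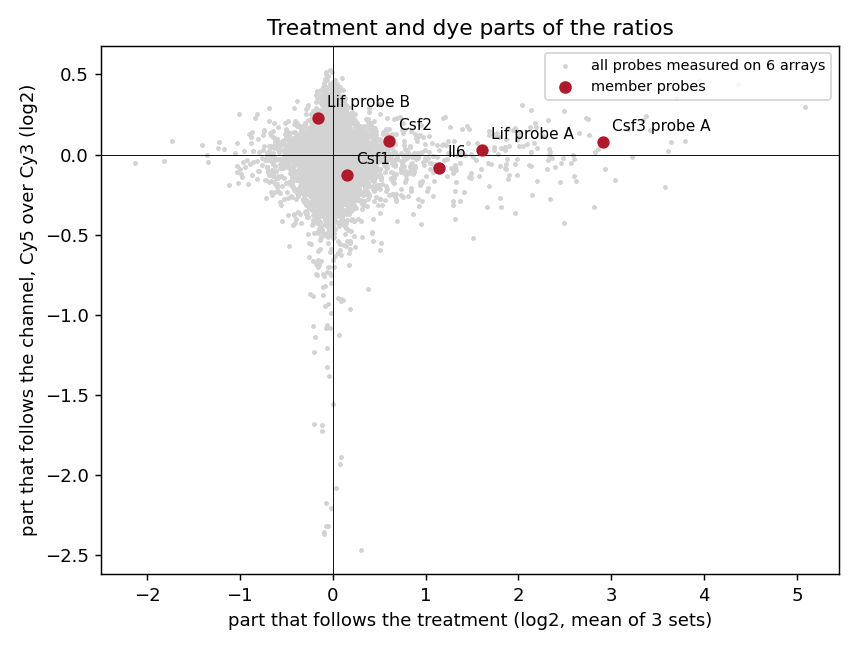
The part of each probe's ratio that followed the treatment (horizontal axis) against the part that followed the channel, Cy5 over Cy3 (vertical axis), both log2 and means of 3 sets, for the 13224 probes measured on all arrays (grey) and the 6 such member probes (red). Csf3 probe A, Lif probe A and Il6 lie far to the right with channel parts near 0, and Lif probe B lies left of 0 at a channel part of 0.23.

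Csf2 encodes granulocyte-macrophage colony-stimulating factor. Its probe gave 1.27, 0.34 and 0.47 in sets 1 to 3 with treated RNA in Cy5, and 0.68, 0.36 and 0.54 with treated RNA in Cy3. All values were above 0, and the array of set 1 with treated RNA in Cy5 stood well above the others. The mean was 0.61 ± 0.33 (SD, n = 3 sets; adjusted p = 0.0183, rank 227). The call was lost without set 3 (0.66, adjusted p = 0.108), when any 1 of 3 single arrays was left out (adjusted p of 0.0583, 0.0793 and 0.118), and on the arrays with treated RNA in Cy5 alone (adjusted p = 0.128).

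Csf1 encodes macrophage colony-stimulating factor, the survival factor of macrophages. It gave -0.01, -0.13 and 0.22 in sets 1 to 3 with treated RNA in Cy5, and -0.06, 0.66 and 0.25 with treated RNA in Cy3. The values lay on both sides of 0, with 3 of 6 arrays above it, and the highest was set 2 with treated RNA in Cy3. The mean was 0.16 ± 0.17 (SD, n = 3 sets; adjusted p = 0.214, rank 1287).

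In order of the set values, Csf3 (2.49 to 3.28) stood above all other members in every set. Il6 (0.70 to 1.54) stood above the Lif gene value (0.63 to 0.83) and Csf2 (0.35 to 0.98) in every set, although the ranges over sets overlapped. The Lif gene value was below Csf2 in set 1 and above it in the other sets. Csf1 (-0.03 to 0.26) lay below each of them in every set. Lif probe A (1.53 to 1.73) lay above Il6 in every set and below Csf3. The set ranges of Il6 and Lif probe A met only at their ends, since Il6 reached 1.54 in set 1.

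**Figure D4:**
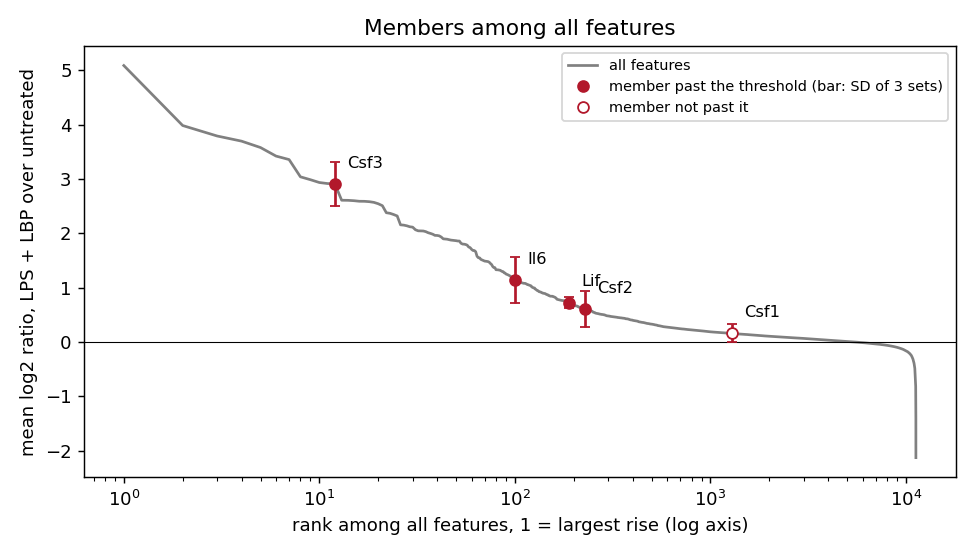
Mean log2 ratio of LPS + LBP over untreated (vertical axis) against rank from the largest rise (horizontal log axis) for all 11231 features (grey line) and the 5 member genes (red, bars SD of 3 sets, filled past the threshold). Csf3 stands at rank 12, Il6 at 100, Lif at 188, Csf2 at 227 and Csf1, open, at 1287.

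The sets differed more for Il6, Csf3 and Csf2 than for most features. Their SDs of 0.42, 0.40 and 0.33 compare with a median of 0.08 over all features, and with 0.15 over the 123 features that rose by over 2-fold. Of those 123, 15 had an SD of at least that of Csf3, with Csf3 and Il6 included. The gene values of Csf3, Il6, Csf2 and Lif all ran in the same order, set 1 above set 3 above set 2. For Lif that order came with the averaging of its probes, since probe A ran 1.73, 1.57 and 1.53 in sets 1 to 3. Of the 826 features that were higher, 212 (25.7%) had that order, and the medians of those features were 0.41 in set 1, 0.35 in set 2 and 0.38 in set 3. This order was noticed after the values were seen.

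For each gene that rose, the 3 named genes with the smallest root mean square difference over the 6 arrays were listed. For Csf3 these were Ccl2 (difference 0.31), Phlda1 (0.33) and Pim1 (0.36), which themselves rose by 2.99, 3.04 and 2.91. For Il6 they were Amotl2 (0.18), Adm (0.18) and Plek2 (0.24), at 1.01, 1.05 and 0.97. For Csf2 they were Ms4a6c (0.21), Trim21 (0.22) and Rasip1 (0.22), of which Trim21, at 0.64 ± 0.55, did not pass (adjusted p = 0.0767). For the Lif gene value they were 6330407A03Rik (0.10), Ppp1r15a (0.13) and Bcl10 (0.13), at 0.76, 0.67 and 0.76.

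Genes that flank the members on the chromosome were looked at next, by order in the RefSeq annotation. The 3 protein-coding genes on either side of each of the 6 listed genes made 30 genes besides the members. Of these, 15 could be tested, 0 rose and 1 fell. With 7.35% of all features higher and 7.45% lower, such counts among 15 are near the background. The lower one was Mtmr3, which encodes a lipid phosphatase and lies close to Lif, at -0.30 ± 0.07 (SD, n = 3 sets; adjusted p = 0.00998). The other 14 lay between -0.09 and 0.07, with adjusted p of 0.292 or more. Il3, which encodes a growth factor that shares its receptor beta chain with Csf2, lies next to Csf2 and stood at 0.04 ± 0.11 (adjusted p = 0.689), against 0.61 for Csf2. The neighbours of Csf3, Psmd3 and Med24, stood at 0.05 and 0.04, against 2.91 for Csf3.

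Of 13 receptor genes, 9 could be tested: 0 were higher, 2 lower and 7 did not pass, with a median of -0.05. Of all features, 7.35% were higher and 7.45% lower. The 2 lower receptors are a larger share of 9 than that, but the list is small and the difference was not tested. Csf3r, the receptor of Csf3, gave -0.44, -0.85 and -0.25 with treated RNA in Cy5 and -0.40, -0.08 and -0.41 with treated RNA in Cy3. All 6 values were below 0, and the mean was -0.41 ± 0.07 (SD, n = 3 sets; adjusted p = 0.00326). The call of Csf3r was lost without either array of set 2 (adjusted p = 0.208 and 0.0582) and in each orientation alone (adjusted p = 0.101 and 0.137).

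Csf1r, the receptor of Csf1 and a marker of the macrophage lineage, gave -0.23, -0.20 and -0.15 with treated RNA in Cy5 and -0.32, -0.25 and -0.13 with treated RNA in Cy3. Its mean was -0.21 ± 0.07 (SD, n = 3 sets; adjusted p = 0.0354), below 0 on every array. The size is small, and the call was kept under 6 of the 20 alternatives and lost without any 1 set (adjusted p from 0.0574 to 0.147).

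The chains for Csf2 were Csf2ra at 0.15 ± 0.04 (adjusted p = 0.0803) and Csf2rb, the shared beta chain, at 0.03 ± 0.11 (adjusted p = 0.813). Csf2ra was above 0 on 6 of 6 arrays and had adjusted p = 0.0277 in a fit to single arrays with the set as a replicate block. Il6ra stood at -0.16 ± 0.20 (adjusted p = 0.257) and Il6st, the gp130 gene, at -0.25 ± 0.25 (adjusted p = 0.142). For Il6st, 1 array, set 2 with treated RNA in Cy5, gave -1.14. Lifr, Osmr and Il3ra stood at 0.09 ± 0.26, -0.05 ± 0.06 and 0.06 ± 0.14. Cntfr and Il27ra had values on some arrays only, and Il11ra1 was not analysed here. Csf2rb2 was measured by 1 probe on 5 arrays, with a mean of -0.06. That probe gave 0.06 and 0.22 with treated RNA in Cy5 and 0.10, -0.35 and -0.36 with treated RNA in Cy3. Of its 5 deposited ratios, 4 were positive, and a mean over unequal numbers of both orientations does not cancel the dye. The other probe of Csf2rb2 gave -0.91 and -0.57 with treated RNA in Cy5 and 0.85 and 0.20 with treated RNA in Cy3. Thus 0 of its 4 deposited ratios were positive.

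Of 13 other ligands that use gp130, the shared beta chain or related growth factor receptors, 9 were tested, with 0 higher, 1 lower and a median of -0.05. These counts are near the 7.35% and 7.45% of all features. The lower one was Kitl, the ligand of the receptor Kit, at -0.27 ± 0.12 (adjusted p = 0.0302), which was past the threshold under 8 of the 20 alternatives. Il34, the other ligand of Csf1r, stood at -0.22 ± 0.13 (adjusted p = 0.0630). Il11 and Clcf1, which signal through gp130, stood at -0.05 ± 0.12 and -0.05 ± 0.21, and Ctf1, which does so too, at 0.18 ± 0.08 (adjusted p = 0.0605). The Ctf1 value averages 2 probes, at 0.29 and 0.07 (adjusted p = 0.0104 and 0.447 in the probe fit). With the probe of the smallest spread between sets, 1 ligand of the list was higher and 1 lower. With missing values allowed, 1 was higher and 0 lower. Ebi3, a subunit of IL-27 and IL-35, had 4 values, with a mean of 0.48, and 0 of its 4 deposited ratios were positive.

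**Figure D5:**
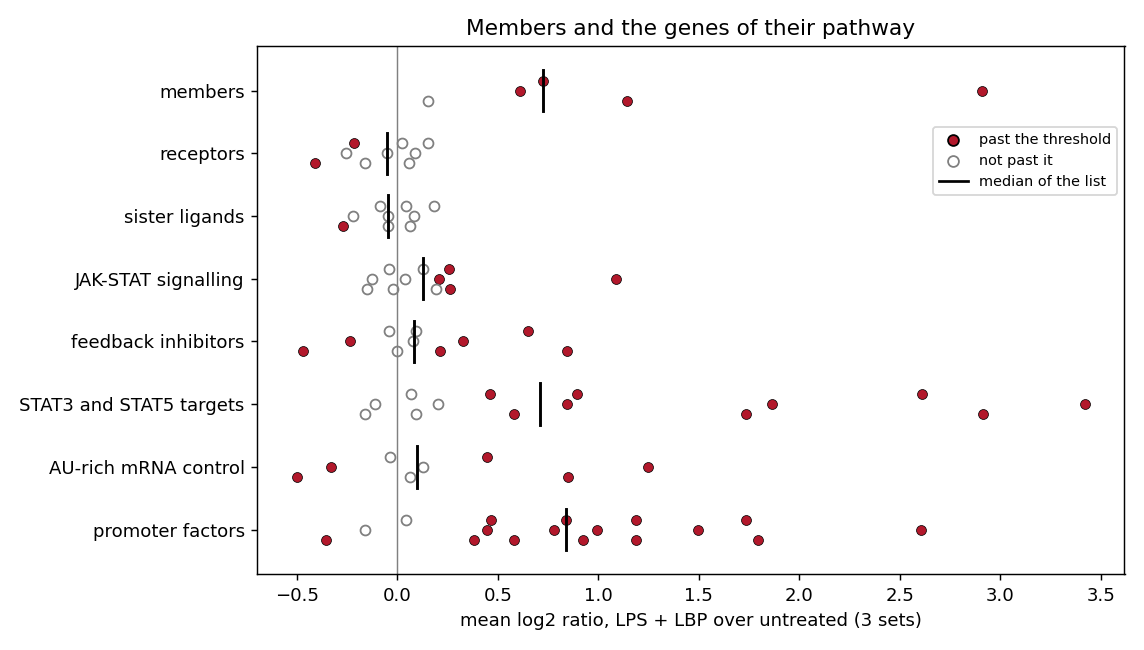
Mean log2 ratio of LPS + LBP over untreated over 3 sets (horizontal axis) for the 5 member genes and the tested genes of 7 lists of their pathway (rows). Filled points passed the threshold, open points did not, and the black line is the median of each list. Medians are 0.72 for the members, -0.05 for receptors and sister ligands, 0.71 for STAT targets and 0.84 for promoter factors.

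Behind the receptors, 4 of 11 tested JAK, STAT and adaptor genes were higher and 0 lower, against 7.35% and 7.45% of all features. Their median was 0.13. Jak2, the kinase of the Csf2 and Csf3 receptors among others, rose 2.12-fold (1.09 ± 0.11, adjusted p = 0.000111), past the threshold under all 20 alternatives. Stat3, the main STAT of gp130 and of the Csf3 receptor, rose by 0.26 ± 0.04 (adjusted p = 0.0143) and was past the threshold under 13 of the alternatives. Its value was 0.13 (adjusted p = 0.242) with treated RNA in Cy3 only, and its adjusted p was 0.154 without set 3. Ptpn11 and Jak1 stood at 0.27 ± 0.10 and 0.21 ± 0.06 (adjusted p = 0.0242 and 0.0360), with their calls kept under 10 and 7 of the alternatives. Stat5a (0.13 ± 0.10) and Stat5b (-0.15 ± 0.07) did not pass.

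Inhibitors of this signalling had 4 higher and 2 lower genes among 10 tested, against 7.35% and 7.45% of all features. Their median was 0.09. Cish, a SOCS family inhibitor that STAT5 induces, rose by 0.84 ± 0.28 (adjusted p = 0.00328), and Socs1, an inhibitor of JAK kinases, by 0.65 ± 0.12 (adjusted p = 0.000944). In set 2, Cish gave 0.05 with treated RNA in Cy5 and 1.39 with it in Cy3. The call of Cish was lost without that Cy3 array (adjusted p = 0.178) and with treated RNA in Cy5 only (adjusted p = 0.181). Socs3, the SOCS protein that binds gp130, stood at 0.09 ± 0.06 (adjusted p = 0.281). Inpp5d, which encodes the lipid phosphatase SHIP1, fell by 0.47 on the log2 scale (SD 0.06, adjusted p = 0.00167). Sh2b3 (0.33), Ptpn2 (0.22) and Pias3 (-0.23) made up the rest, and the calls of Ptpn2 and Pias3 were kept under 6 and 9 of the alternatives.

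Genes known to rise after STAT3 or STAT5 activation had 9 higher and 0 lower among 14 tested, against 7.35% and 7.45% of all features. Their median was 0.71. LPS is known to induce many of these genes without these cytokines too. The highest were Myc (3.42 ± 0.37), Pim1 (2.91 ± 0.05), the acute phase gene Saa3 (2.61 ± 0.22) and Bcl3 (1.86 ± 0.16), each past the threshold under all 20 alternatives. Cebpd (1.74), Mcl1 (0.90), Cish, Cebpb (0.58) and Bcl2l1 (0.46) were the other higher ones. The Bcl2l1 value averages 4 probes from -0.10 to 1.52, and its call was kept under 9 of the alternatives. It was lost without set 1 (adjusted p = 0.0633) or set 3 (adjusted p = 0.147), and with the probe of the smallest spread between sets Bcl2l1 stood at 0.12 (adjusted p = 0.211). Socs3, Fos, Ccnd1, Il4ra and Timp1 did not pass.

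Transcription factors known to act at promoters of these cytokines had 14 higher and 1 lower among 17 tested. The shares of all features were 7.35% higher and 7.45% lower, and the median of the list was 0.84. Like the other lists, it was chosen with earlier results of these data known. Nfkbiz, whose protein IκBζ is needed for full induction of Il6 in mouse macrophages, rose by 2.61 ± 0.32 (adjusted p = 5.54e-05). The Nfkbiz value averages 2 probes, at 1.599 and 3.613, and lies near neither. Both probes were higher in the probe fit. The SD is that between sets and leaves out the gap between the probes. Cebpb and Cebpd, whose proteins bind the C/EBP element of Il6, rose by 0.58 ± 0.04 and 1.74 ± 0.08. Of the NF-κB subunit genes, Relb (1.79), Nfkb2 (1.19), Rel (0.92) and Rela (0.38) were higher. Egr1 (1.49), Ets2 (1.19), Atf3 (0.99), Fosl1 (0.84), Fosl2 (0.78), Spi1 (0.47) and Cebpa (0.45) were also higher. The calls of Cebpa, Rela and Spi1 were kept under 14, 16 and 16 of the 20 alternatives. Cebpa did not pass in either orientation alone (adjusted p = 0.0887 and 0.0569). Rela did not pass without set 3 (adjusted p = 0.0515) or with treated RNA in Cy3 only (adjusted p = 0.150). In set 2, Fosl2 gave 0.10 with treated RNA in Cy5 and 1.23 with it in Cy3. The call of Fosl2 was lost without that Cy3 array (adjusted p = 0.117) and with treated RNA in Cy5 only (adjusted p = 0.140). Jun, at -0.35 ± 0.19 (adjusted p = 0.0302), was the lower one, but it had 1 array above 0 and adjusted p = 0.234 in the fit to single arrays with the set as a replicate block.

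Transcripts of this family carry AU-rich elements that RNA-binding proteins use to set their stability. Of 14 genes of this control, 8 were tested, with 3 higher, 2 lower and a median of 0.10. Over all features the shares were 7.35% higher and 7.45% lower. Zfp36, which encodes the destabilising protein tristetraprolin, rose by 0.85 ± 0.08 (adjusted p = 0.000207), and its relative Zfp36l1 by 1.25 ± 0.09 (adjusted p = 4.11e-05). The third relative, Zfp36l2, was lower at -0.33 ± 0.08 (adjusted p = 0.00861), a call kept under 13 of the 20 alternatives. Mapkapk2, which encodes the kinase MK2 that inactivates tristetraprolin, was higher at 0.45 ± 0.05 (adjusted p = 0.00176). Mapk14, the gene of the p38α kinase that activates MK2, was lower at -0.50 ± 0.07 (adjusted p = 0.00148). Elavl1, which encodes the stabilising protein HuR, stood at 0.07 ± 0.10.

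Markers of other cell types were checked as changes beside these counts. Of 13 tested markers of T cells, B cells, fibroblasts, endothelium and epithelium, 0 passed the threshold by limma, against 14.8% of all features. Their median was 0.07 and their range -0.20 to 0.22, and 4 had a p under 0.05 before adjustment. The Cd4 value averages 2 probes, at 0.32 and 0.02 (adjusted p = 0.00912 and 0.913 in the probe fit). The count of 0 changed with the probe of the smallest spread between sets (1 higher), without set 2 (2 higher) and without set 1 (1 lower). Whether these markers were expressed in either RNA is not known, so cell composition was not read from them. Of 10 macrophage markers, 2 were higher, 2 lower and 6 did not pass, with a median of -0.01. Among all features, 7.35% were higher and 7.45% lower. Adgre1, which encodes the surface marker F4/80, was higher at 0.83 ± 0.07 (adjusted p = 0.000195), as was Spi1, whose protein PU.1 directs myeloid development, at 0.47 ± 0.12 (adjusted p = 0.00349). Fcgr1, which encodes a high-affinity Fc receptor, was lower at -0.47 ± 0.09 (adjusted p = 0.00231), as was Csf1r. Among those that did not pass, Cd68 and Lyz2 stood at 0.00 ± 0.06 and 0.08 ± 0.04. Any part of a change in cell composition in the rises of the cytokines was not tested.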

How the data were processed

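The authors deposited 1 table of log2 ratios between the channels of 6 two-colour arrays. For the scanner software, the background correction and the normalization, the sources used here give nothing. The log2 scale was taken from the values: 89.9% of the deposited non-zero values were log10 ratios of 7 decimals times log2(10), within 0.001 of the last decimal. Cy5 over Cy3 is the likely direction. With the signs turned on that basis, 7 known LPS-induced genes were each higher on 6 of 6 arrays. Exact zeros (10.8% of the table) were treated as missing. Without intensities, how far a probe stood above background is not known here, and precision is limited by how many arrays there are.

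Gene names came from the platform annotation. Probes of a gene measured on all 6 arrays were averaged, which gave 11231 features. The arrays of a set were averaged and the 3 set means tested by a two-sided moderated test (limma 3.58.1, lmFit then eBayes, R 4.3.3) for a mean other than 0, with Benjamini-Hochberg adjustment over all features. A probe fit used the 13224 such probes. The set number was taken to pair arrays, since arrays with the same number deviated together from their orientation's mean (deposited ratios, r across features of 0.40, 0.43 and 0.14). These ratios are those before the sign was turned, so the shared deviation followed the channel and not the treatment. In the fit to single arrays with a dye term, the estimated correlation of the arrays within a set was -0.055. Neither value shows that a set shared a culture. The mean of the 2 deposited ratios of a set is the part that follows the channel, and the mean after the sign is turned is the part that follows the treatment. The test was checked on simulated data.

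The members, gene lists and motifs were chosen with earlier results of these data known. All member probes and every receptor gene were named, and from the other lists the genes past the threshold and some of those that were not. The comparison of protein sequences planned at the start was not run. The 20 alternatives covered single-array fits, left-out sets and arrays, dye orientation, scaling, missing values, probe choice and the test.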

Additional observations from a re-analysis of the deposited data

Results flagged for a closer look

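For Csf2, the array of set 1 with treated RNA in Cy5 gave 1.27, far from the other 5 arrays, which lay between 0.34 and 0.68. Its gap to the nearest of them, as a share of the whole range, was above the critical value of Dixon's test. The nearest value, 0.68, was that of the other array of set 1. Among independent values, chance gives such a gap in about 1 of 20 groups, and 7 member probes were tested. Arrays of the same set may not be independent, so this rate may not hold here. Without the array of set 1 with treated RNA in Cy5, Csf2 stood at 0.51 (adjusted p = 0.0197, limma).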

How the results depend on the processing

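Every member kept the sign of its value under all 20 alternatives run. Csf1 passed under none of them. In the fits to 6 single arrays with a dye term, the set as a replicate block gave 4 members past the threshold, as did no block. For Csf2 the adjusted p was 0.0192 with the block and 0.0214 without it. Leaving out 1 set or 1 array moved Csf2 between 0.43 and 0.74 and Il6 between 0.94 and 1.36. It moved the number of members past the threshold between 2 and 4, that of genes of the pathway lists between 24 and 38 (39 as reported) and that of all features between 533 and 1685 (1663 as reported). The lowest member count came without set 3, and the other 2 lowest counts without the array of set 2 with treated RNA in Cy5. The all-feature count also moved by over 1.5 times without set 1 (1056) or set 3 (563), and without the arrays of set 1 in Cy5 (1030), set 1 in Cy3 (823) or set 2 in Cy3 (734). Csf2 had 0.69 and adjusted p = 0.128 with treated RNA in Cy5 only, and Il6 had 1.23 and adjusted p = 0.0557 with treated RNA in Cy3 only. The all-feature count was 639 in the first orientation and 655 in the second. With zeros kept as ratios of 0, Csf2 (0.61), Csf3 (1.20, adjusted p = 0.141) and Il6 (1.14) did not pass, and the counts were 1 member, 23 list genes and 962 features. For Csf3, that setting averages probe B and its zeros with probe A. Against a 1.5-fold change, Csf2 (0.61), Il6 (1.14) and Lif (0.72) did not pass, and the counts were 1, 14 and 141. That test asks for more than a difference from 0. The cause of the other losses was not tested.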
